A study of Mus musculus with 4 samples.

Results

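The matrix metalloproteinases (MMPs) are zinc-dependent proteases that cut collagens, elastin, proteoglycans and other extracellular proteins. Most are secreted as inactive proenzymes that other proteases switch on outside the cell, some are anchored in the cell membrane, and tissue inhibitors of metalloproteinases (TIMPs) block the active forms. In lung they are known from fibroblasts, macrophages, neutrophils and injured or malignant epithelium. The 10 genes described here, Mmp2, Mmp3, Mmp7, Mmp8, Mmp9, Mmp11, Mmp12, Mmp13, Mmp14 and Mmp19, were taken by name from 23 MMP genes with a probe on the array and from 23787 named genes in all. Every probe whose accession belongs to one of them was used, 15 of 56605 probes.

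Total RNA came from lung tumours of KP mice on the C57BL/6J strain, a model in which Cre recombinase starts lung tumours. Cre was delivered into the trachea by adenovirus 88 to 92 days before RNA was taken, in all groups. The groups were CD109-/- KP mice (replicate 1 male, replicate 2 female) and CD109+/+ KP mice (replicates 1 and 2, both female), with 1 array per sample. CD109 is a membrane-anchored protein that can bind TGF-beta, and the comparison asks which genes differ without it. The labels used here do not give the animals' ages or the cell type in which Cd109 was inactivated. Nothing in them says whether a replicate is a mouse of its own, and the p-values measure only the spread between these samples, which may be technical.

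Values are log2 of the processed spot signal relative to the 75th percentile of the array. A difference is the CD109-/- mean minus the CD109+/+ mean on that log2 scale, with standard errors (SE, n = 2 per genotype) and intervals at 95% from limma fitted across all tested probes. Signals of different probes are not compared with each other, because probes differ in efficiency. The 75th percentile of the processed signal was between 677 and 688 on the CD109-/- arrays and between 557 and 669 on the CD109+/+ arrays, and at least 64.3% of spots on each array were well above background. The Cd109 probe had -7.98 and -7.87 on the CD109-/- arrays, where it did not rise well above background, against -3.70 and -4.66 on the CD109+/+ arrays, so that the signal was at least 2.92-fold lower in CD109-/- tumours (limma adjusted p = 0.299). That bound holds for this scaling, and with normexp background correction the Cd109 difference was -0.72. All 10 markers listed for alveolar type 2 cells and tumour epithelium were well above background on all 4 arrays. Precision is limited by having 4 arrays. For 1 probe at 2 samples per genotype, the smallest p that exact two-sided permutation allows is 0.333.

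Mmp2, Mmp3 and Mmp8 had higher signals on both CD109-/- arrays than on either CD109+/+ array, by 1.13 ± 0.27, 2.47 ± 0.65 and 1.39 ± 0.30. None of the 10 genes passed the adjusted threshold of 0.05. The limma adjusted p of their leading probes, the tested probe of a gene with the highest mean signal, lay between 0.580 and 0.959. Over all 35776 tested probes 0% passed (lowest limma adjusted p = 0.288), while 6.81% had an unadjusted p under 0.05. Among the 10 genes, 3 had an unadjusted p under 0.05 with a higher signal in CD109-/- tumours, where this held for 5.05% of all 16444 genes, and 0 did so with a lower signal, against 2.48%. The genotypes did not overlap in 4 of the 10 genes with higher values in CD109-/- tumours and in 1 with lower values, while over all genes these shares were 20.3% and 18.3%. By the sign of the difference alone, 7 of the 10 were higher, against 50.3% of all genes. The median difference of the 10 genes was 0.61, and that of all genes was 0.00. Because the 10 genes were chosen with earlier results of these data known, these counts are a description only.

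**Figure D1:**
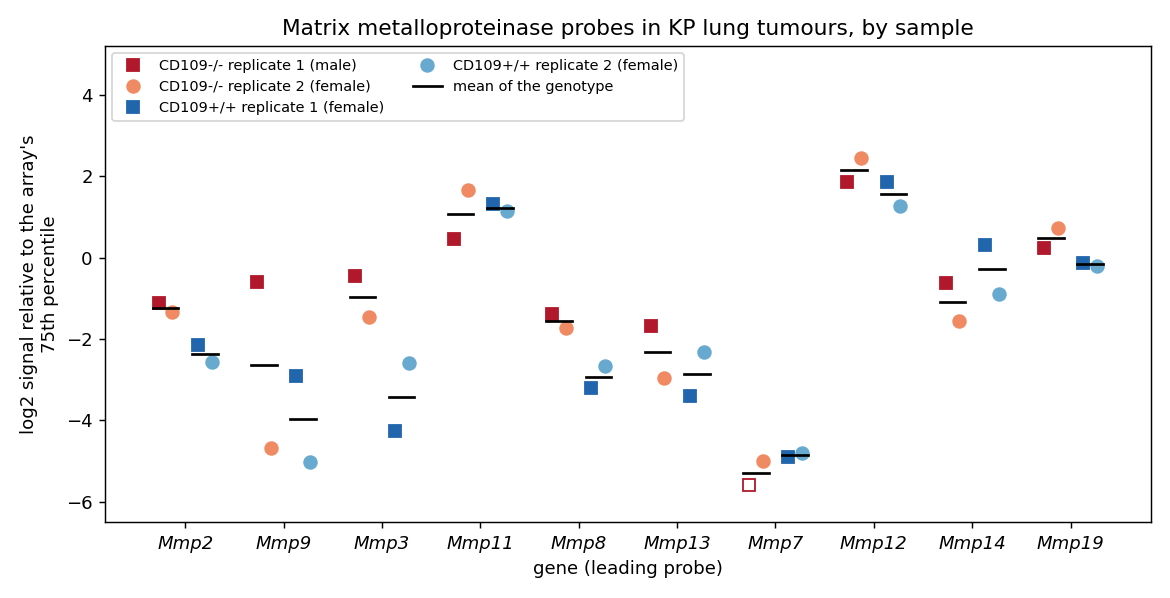
Log2 signal of the leading probe of each of the 10 genes (vertical axis, relative to the 75th percentile of the array) in each sample. Red and orange points are CD109-/- samples, dark and light blue points are CD109+/+ samples, black bars are genotype means, and the open square (Mmp7 in CD109-/- replicate 1) marks a signal not well above background. Mmp2, Mmp3, Mmp8 and Mmp19 have both CD109-/- points above both CD109+/+ points, whereas the Mmp9 points of each genotype lie far apart, at -0.61 and -4.68 in CD109-/- and at -2.92 and -5.03 in CD109+/+ tumours. Only points of the same gene can be compared.

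The gelatinases Mmp2 and Mmp9 cut denatured collagen and basement membrane collagen. The Mmp2 signal was -1.12 and -1.34 in CD109-/- tumours, against -2.15 and -2.57 in CD109+/+ tumours. The genotypes did not overlap, and replicates of a genotype lay within 0.42 of each other. The difference of 1.13 corresponds to 2.19-fold and has an interval of 0.44 to 1.82 (limma unadjusted p = 0.00839, adjusted p = 0.594). It was between 0.92 and 1.34 with any 1 sample left out, and without CD109+/+ replicate 2 the unadjusted p was 0.0616.

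Mmp9 varied more than any other of the 10 genes between samples of the same genotype. Its leading probe gave -0.61 and -4.68 in CD109-/- tumours, against -2.92 and -5.03 in CD109+/+ tumours, so that both replicates 1 were high and both replicates 2 low. The difference of 1.33 ± 1.46 was smaller than its standard error and had an interval of -2.43 to 5.09 (limma adjusted p = 0.887). The second Mmp9 probe gave -1.15 and -5.28 in CD109-/- tumours, against -4.39 and -7.94 in CD109+/+ tumours, the last of these not well above background. It passed the filter through the CD109-/- arrays only, and it ordered the samples in the same way. Its difference of 2.96 ± 1.73 includes the signal near background on 1 of the 2 CD109+/+ arrays. With only the female samples, that is without CD109-/- replicate 1, the difference of the leading probe was -0.70, and without CD109-/- replicate 2 it was 3.36. The sign for the leading probe therefore changed with 1 sample. Without CD109-/- replicate 1 the second probe gave 0.89, but this rests on the CD109+/+ replicate 2 signal near background. The other CD109+/+ value of that probe, -4.39, lay above the remaining CD109-/- value, -5.28.

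**Figure D2:**
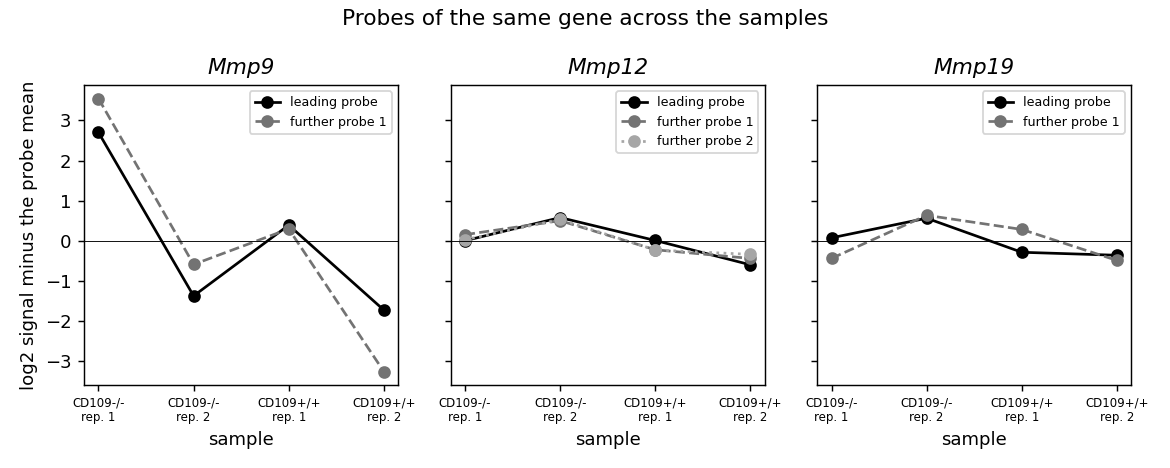
Log2 signal minus the probe's own mean (vertical axis) in the 4 samples for the tested probes of Mmp9, Mmp12 and Mmp19. The 3 Mmp12 probes differ by at most 0.26 in any sample, the 2 Mmp19 probes by up to 0.57 and the 2 Mmp9 probes by up to 1.53, while both Mmp9 probes are highest in CD109-/- replicate 1.

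The stromelysins are secreted by stromal cells and cut proteoglycans, fibronectin and the propeptides of other MMPs. The Mmp3 signal was -0.46 and -1.46 in CD109-/- tumours, against -4.26 and -2.60 in CD109+/+ tumours. This was the largest difference among the leading probes of the 10 genes, 2.47 ± 0.65 or 5.53-fold, with an interval of 0.79 to 4.14 (limma unadjusted p = 0.0128, adjusted p = 0.615). Replicates also lay far apart, by 1.01 in CD109-/- and 1.66 in CD109+/+ tumours, yet the genotypes did not overlap. Leaving out CD109+/+ replicate 1 gave 1.64 and leaving out CD109+/+ replicate 2 gave 3.30, and the unadjusted p stayed under 0.05 whichever sample was left out. With normexp background correction the difference was 1.54. Mmp11, a furin-activated stromelysin of tumour stroma, had 0.46 and 1.66 in CD109-/- and 1.32 and 1.15 in CD109+/+ tumours. The CD109-/- samples lay on both sides of the CD109+/+ samples, and the difference was -0.17 ± 0.44 (interval -1.31 to 0.97, limma adjusted p = 0.959), or 0.43 in female samples only.

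The collagenases cut native fibrillar collagen. Mmp8, best known from neutrophil granules, had -1.38 and -1.72 in CD109-/- tumours, against -3.20 and -2.67 in CD109+/+ tumours. The genotypes did not overlap and replicates lay within 0.53 of each other. The difference of 1.39 ± 0.30 corresponds to 2.62-fold, with an interval of 0.62 to 2.16, and Mmp8 had the lowest p of the 10 genes (limma unadjusted p = 0.00558, adjusted p = 0.580). It ranged from 1.12 to 1.65 with any 1 sample left out, each time with an unadjusted p under 0.05, and was 0.86 with normexp background correction. Mmp13, the main interstitial collagenase of the mouse, had -1.67 and -2.96 in CD109-/- and -3.39 and -2.32 in CD109+/+ tumours. These overlapped, and the difference of 0.54 ± 0.57 had an interval of -0.93 to 2.01 (limma adjusted p = 0.881). In female samples only it was -0.10.

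Mmp7 (matrilysin), an epithelial MMP, was dim. Its leading probe gave -5.58 and -5.01 in CD109-/- tumours, the first not well above background, against -4.90 and -4.81 in CD109+/+ tumours. The probe passed the filter through the CD109+/+ arrays, and its difference was -0.44 ± 0.29 (interval -1.19 to 0.30, limma adjusted p = 0.811). The second Mmp7 probe was not well above background on any array and was the 1 probe of the 15 that was not tested. Mmp12, the macrophage elastase, was read by 3 probes, which gave differences of 0.59 ± 0.35, 0.66 ± 0.26 and 0.56 ± 0.28 (limma adjusted p = 0.792, 0.729 and 0.766). Its leading probe had 1.86 and 2.44 in CD109-/- tumours, against 1.87 and 1.26 in CD109+/+ tumours, where CD109-/- replicate 1 and CD109+/+ replicate 1 were nearly equal. With the other 2 probes both CD109-/- samples lay above both CD109+/+ samples. The 3 differences were close in size, and the interval of each included 0.

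Mmp14 is a membrane-type MMP that activates the Mmp2 proenzyme in a complex with Timp2. Its signal was -0.62 and -1.56 in CD109-/- tumours, against 0.31 and -0.88 in CD109+/+ tumours. The genotypes overlapped, and the difference of -0.80 ± 0.53 had the opposite sign to that of Mmp2 (interval -2.16 to 0.55, limma adjusted p = 0.811). Within each genotype replicate 1 was higher, by 0.94 in CD109-/- and 1.19 in CD109+/+ tumours. Mmp19, a secreted MMP that cuts basement membrane proteins, had 0.23 and 0.72 in CD109-/- tumours, against -0.13 and -0.21 in CD109+/+ tumours. These did not overlap, with a difference of 0.64 ± 0.27 (interval -0.06 to 1.34, limma adjusted p = 0.75). The second Mmp19 probe gave 0.20 ± 0.47 and overlapped. It differed by 0.74 without CD109-/- replicate 1 and by -0.33 without CD109-/- replicate 2. Without CD109+/+ replicate 1 it differed by 0.59, and without CD109+/+ replicate 2 by -0.18.

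**Figure D3:**
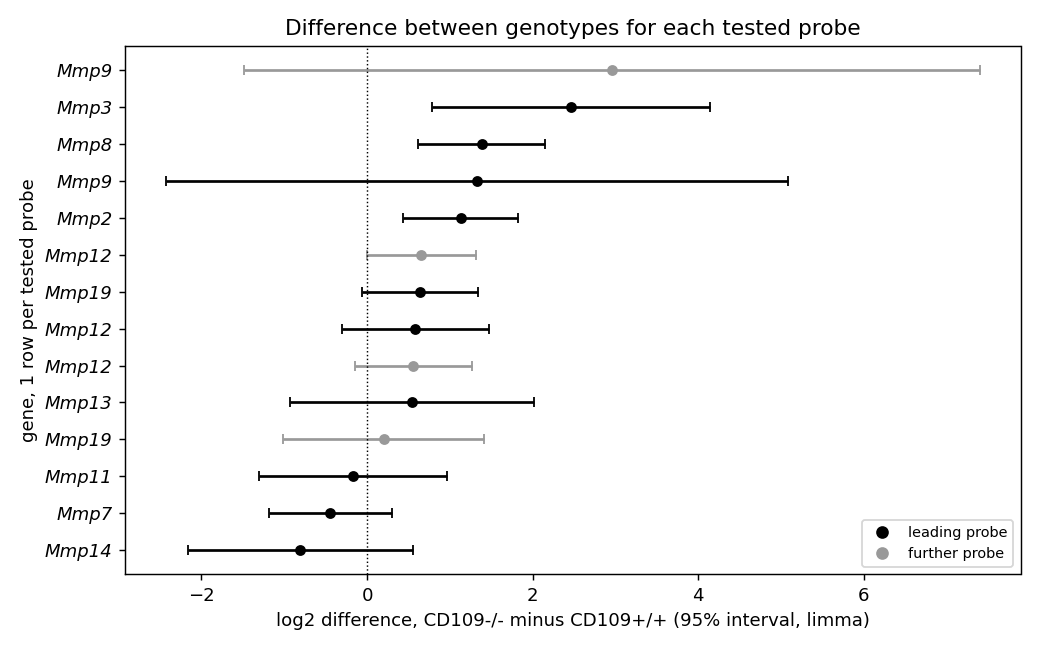
Log2 difference between genotypes, CD109-/- minus CD109+/+ (horizontal axis), for each of the 14 tested probes with its 95% interval from limma, black for the leading probe of a gene and grey for further probes. Only the intervals of Mmp3, Mmp8 and Mmp2 lie wholly above 0, from 0.79, 0.62 and 0.44 upward, and these intervals are not adjusted for the number of probes.

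Mmp3, Mmp7, Mmp8, Mmp12 and Mmp13 lie on mouse chromosome 9 in a run that holds 10 MMP genes and 3 other annotated genes in the RefSeq table. Of the 5 genes in the run 4 had higher values in CD109-/- tumours, and of the 5 elsewhere 3 did. Several inducible MMP genes are textbook targets of AP-1, the Jun and Fos transcription factor, through a site just before a TATA box. RefSeq start windows (GRCm38.p6, 250 bases before to 50 bases after an annotated start) were available for 7 of the 10 genes, in 9 windows. The AP-1 letters TGAGTCA or TGACTCA, which are each other's reverse complement so that both strands are covered, were in 4 of the 9 windows (Mmp3, Mmp7, Mmp12 and Mmp13), against 5.2% of all 32851 windows. The window of a second annotated start of Mmp12 and of Mmp7 held none. All 4 also held TATAAA on the gene's strand, a motif added after the windows had been read, and both motifs together were in 0.624% of all windows. The windows of the 4 genes are shown from the AP-1 letters to TATAAA, both in capitals, with the Mmp8 window from the same run, which has neither. A match is a description of letters and not of a bound site.
Mmp3, chr9:7445761-7445835, plus strand: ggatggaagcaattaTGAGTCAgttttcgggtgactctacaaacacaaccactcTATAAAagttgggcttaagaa
Mmp13, chr9:7272464-7272518, plus strand: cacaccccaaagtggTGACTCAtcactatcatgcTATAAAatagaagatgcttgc
Mmp12, chr9:7347315-7347398, plus strand: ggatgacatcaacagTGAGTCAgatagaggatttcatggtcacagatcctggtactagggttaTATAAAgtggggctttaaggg
Mmp7, chr9:7692012-7692084, plus strand: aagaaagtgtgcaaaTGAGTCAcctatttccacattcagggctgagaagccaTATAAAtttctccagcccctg
Mmp8, chr9:7558179-7558478, plus strand: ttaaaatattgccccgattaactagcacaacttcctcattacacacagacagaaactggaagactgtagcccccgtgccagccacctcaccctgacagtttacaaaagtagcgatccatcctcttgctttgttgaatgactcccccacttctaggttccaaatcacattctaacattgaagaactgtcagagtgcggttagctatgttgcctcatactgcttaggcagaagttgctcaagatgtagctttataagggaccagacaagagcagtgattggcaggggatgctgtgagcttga

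The AP-1 letters began 46, 35, 44 and 63 bases before the annotated start of Mmp3, Mmp13, Mmp12 and Mmp7, and in Mmp12 TATAAA lay just after that start. The 4 genes with them had differences of 2.47, 0.54, 0.59 and -0.44, and Mmp8, Mmp11 and Mmp14, whose windows lack them, had 1.39, -0.17 and -0.80. Among 14 AP-1, ETS and NF-kB factor genes, 8 had higher and 6 lower values in CD109-/- tumours, 0 passed at an unadjusted p under 0.05 in limma (5.05% and 2.48% of all genes higher and lower), and the median difference was 0.02. The lowest p among them belonged to the ETS factor genes Etv4 at -0.62 ± 0.27, Ets2 at 0.29 ± 0.24 and Etv5 at 0.29 ± 0.29 (limma adjusted p = 0.757, 0.846 and 0.872).

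All 7 listed cytokine genes known to induce MMPs had higher values in CD109-/- tumours (median difference 1.14), where 50.3% of all genes did. The list was chosen with earlier results of these data known, so its counts are a description only. Il1a and Tnf were higher through CD109-/- replicate 1 alone. Il1a had -1.74 and -5.98 in CD109-/- tumours, the second not well above background, against -5.16 and -5.64 in CD109+/+ tumours. Tnf had -1.22 and -2.38 in CD109-/- tumours, against -1.71 and -2.16 in CD109+/+ tumours. Of the 7, 2 had an unadjusted p under 0.05, against 5.05% of all genes, and 0 passed after adjustment in limma. Il6 had -2.81 and -2.10 in CD109-/- tumours, against -4.53 and -4.02 in CD109+/+ tumours, a difference of 1.82 ± 0.35 (limma adjusted p = 0.551). Osm, which encodes oncostatin M, had -1.60 and -2.58 in CD109-/- tumours, against -2.94 and -3.54 in CD109+/+ tumours (1.14 ± 0.43, limma adjusted p = 0.718), and differed by 0.65 without CD109-/- replicate 1. Il1b had 2.07 and 0.30 in CD109-/- tumours, against 0.23 and -0.61 in CD109+/+ tumours (1.38 ± 0.66, limma adjusted p = 0.762), and differed by 0.49 without CD109-/- replicate 1. In each of these genes the genotypes did not overlap, which naming the 3 genes with the lowest p makes likely. The share over all genes, 20.3% with higher values in CD109-/- tumours, is not chosen in this way and cannot be set against it. In the rest of the list Tgfb1 and Csf2 did not overlap, and Il1a and Tnf did. With normexp Il6 differed by 0.88 and Osm by 0.69.

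Of the other 13 MMP genes, 5 were tested, and 0 had an unadjusted p under 0.05 in limma. Over all genes 5.05% did with higher and 2.48% with lower values, so with 5 genes a count of 0 tells little. The differences of these 5 lay between -0.11 and 0.62 with a median of 0.10. The membrane-type Mmp15 had 0.69 and 0.21 in CD109-/- tumours, against -0.27 and -0.07 in CD109+/+ tumours (0.62 ± 0.28, limma adjusted p = 0.757), and its groups did not overlap. Mmp17 and Mmp10 differed by 0.10 ± 0.26 and 0.15 ± 0.39 (limma adjusted p = 0.957 for both). Mmp1a, Mmp1b, Mmp16, Mmp20, Mmp21, Mmp24 and Mmp25 were not well above background on any array. Mmp23, named after its values were seen, followed the replicate number rather than the genotype, with 1.22 and -1.39 in CD109-/- tumours, against 1.16 and -1.10 in CD109+/+ tumours.

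Among the MMP inhibitors, 6 of 7 listed genes were tested, and 4 had higher and 2 lower values in CD109-/- tumours. Of these 6, 0 had an unadjusted p under 0.05 in limma, against 5.05% of all genes higher and 2.48% lower. With 6 genes a count of 0 tells little. Timp2, the inhibitor that also joins the Mmp14 complex, had 5.43 and 5.25 in CD109-/- tumours, against 4.55 and 4.88 in CD109+/+ tumours, with no overlap (0.62 ± 0.25, limma adjusted p = 0.739). A second Timp2 probe differed by 0.67. Timp1 had 2.87 and 1.67 in CD109-/- and 2.01 and 1.24 in CD109+/+ tumours, which overlapped (0.65 ± 0.50, limma adjusted p = 0.840). Leaving out CD109-/- replicate 1 gave a Timp1 difference of 0.049, and leaving out CD109-/- replicate 2 gave 1.25. Reck, a membrane-anchored inhibitor, had -1.19 and -0.27 in CD109-/- tumours, against -1.82 and -1.24 in CD109+/+ tumours (0.80 ± 0.41, limma adjusted p = 0.772), with differences of 0.34 to 1.26 when 1 sample was left out.

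Of 11 genes for MMP activators, inducers and surface partners, 8 had higher and 3 lower values in CD109-/- tumours (median difference 0.11), and 1 gene had an unadjusted p under 0.05 in each direction, against 5.05% of all genes higher and 2.48% lower. The proprotein convertase gene Pcsk5 had -2.91 and -1.78 in CD109-/- tumours, against -4.04 and -4.34 in CD109+/+ tumours (1.85 ± 0.43, limma adjusted p = 0.588), and differed by 0.96 with normexp. Plg, which encodes plasminogen, was not well above background in either CD109-/- sample, at -6.47 and -6.22, against -5.25 and -4.60 in CD109+/+ tumours, and was at least 1.74-fold lower in CD109-/- tumours (limma adjusted p = 0.580). It passed the filter through the CD109+/+ arrays only, and with normexp its difference was -0.40. Lcn2, from the same list, differed by 0.63 ± 0.32 (limma adjusted p = 0.772). Of 12 matrix substrate genes, 9 had higher and 3 lower values, with a median of 0.24. Of the 12, 2 had higher values at an unadjusted p under 0.05 and 0 had lower ones, against 5.05% and 2.48% of all genes. The collagen gene Col3a1 had 3.58 and 3.41 in CD109-/- tumours, against 2.30 and 2.15 in CD109+/+ tumours (1.27 ± 0.24, limma adjusted p = 0.551). Bgn and Col1a2 differed by 0.72 ± 0.26 and 0.79 ± 0.33 (limma adjusted p = 0.702 and 0.740).

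Markers of cell types known to make MMPs were read in the same samples, and 0 passed after adjustment in limma. In bulk tissue, fewer cells of a type and less RNA per cell cannot be told apart. Over all genes 50.3% had higher values in CD109-/- tumours. Sums of relative signals give most weight to the brightest probes. Fibroblast and smooth muscle markers, a type known for Mmp2 and Mmp3, had higher values in 11 of 12 genes (median difference 0.70). Tcf21, one of these, passed the filter through the CD109-/- arrays only. Their summed relative signals were 54.4 and 52.6 in CD109-/- against 40.1 and 35.9 in CD109+/+ tumours. Macrophage and monocyte markers, a type known for Mmp12, were higher in 12 of 12 genes, with a median of 0.54. Cd163, one of these, was not well above background on either CD109+/+ array and passed the filter through the CD109-/- arrays only. The macrophage sums were 196 and 231 in CD109-/- against 206 and 127 in CD109+/+ tumours. Chil3 alone made up 150 and 192 of the CD109-/- sums and 175 and 100 of the CD109+/+ sums. Neutrophil markers, a type known for Mmp8 and Mmp9, were higher in 6 and lower in 5 of 11 tested genes, with a median of 0.48. The neutrophil sums were 142 and 98.8 in CD109-/- against 96.1 and 92.9 in CD109+/+ tumours. Csf3r made up 62.0 and 70.9 of the CD109-/- sums and 71.7 and 77.3 of the CD109+/+ sums. Ltf made up 45.8 of the sum of CD109-/- replicate 1. Ngp, a marker of neutrophil precursors, was not tested, Mpo and Elane differed by -0.19 and -0.08, and S100a9 differed by 1.28. No defining marker of these 3 lists was below background on all arrays. The part of these cell types in the MMP values was not tested.

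**Figure D4:**
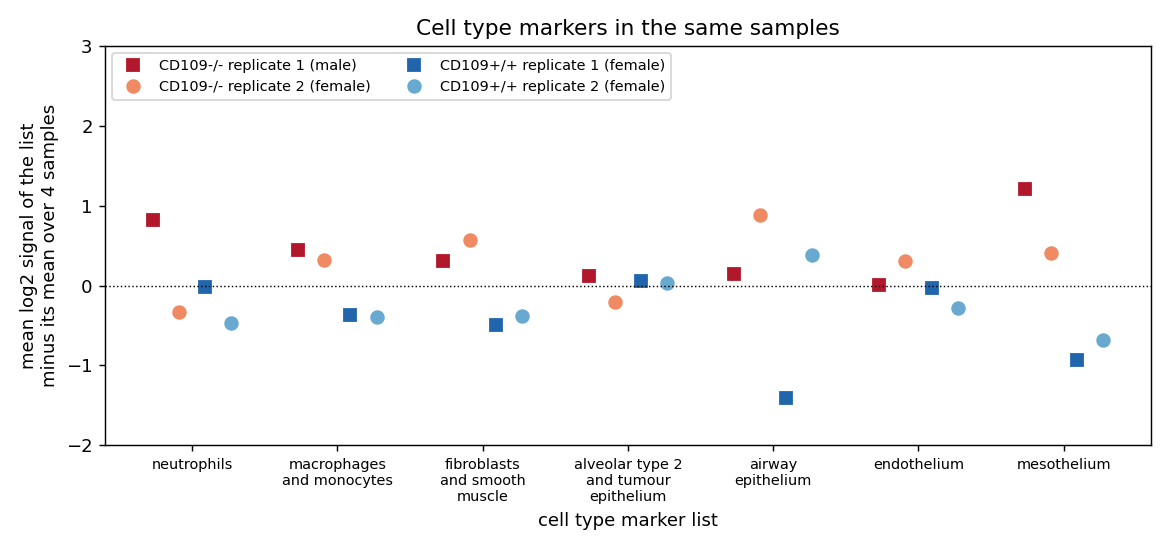
Mean log2 signal of each cell type marker list minus its mean over the 4 samples (vertical axis), with CD109-/- samples in red and orange and CD109+/+ samples in dark and light blue. Both CD109-/- samples lie above both CD109+/+ samples for macrophages and monocytes, for fibroblasts and smooth muscle, for endothelium and for mesothelium. The mesothelium means include Wt1, Lrrn4 and Upk3b, which passed the filter through the CD109-/- arrays only. The neutrophil list is highest in CD109-/- replicate 1, and the alveolar type 2 and tumour epithelium list spans a narrow range.

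Of the 4 mesothelial genes 3 had higher values in CD109-/- than in CD109+/+ tumours, but only Msln was well above background on all 4 arrays. Wt1 and Lrrn4 were not well above background on either CD109+/+ array and Upk3b was not on 1 of them, so the median difference is not given. These 3 genes passed the filter through the CD109-/- arrays only, which favours higher values there. Their count and p-values are therefore no support for a difference, and Msln differed by -0.48. Wt1 had -3.44 and -4.10 in CD109-/- tumours, against -7.03 and -6.43 in CD109+/+ tumours (limma adjusted p = 0.415). Lrrn4 had -5.46 and -4.11 in CD109-/- tumours, against -7.47 and -5.69 in CD109+/+ tumours. Its interval of -0.10 to 3.69 included 0 (limma adjusted p = 0.739). The summed signal was dominated by Msln, which followed the replicate number, and ranged from 8.05 to 44.3 in CD109-/- and from 10.3 to 66.3 in CD109+/+ tumours. Airway epithelial markers had a median difference of 1.29 with 5 of 6 higher (sums of 221 and 282 in CD109-/- against 78.7 and 132 in CD109+/+ tumours). Scgb1a1 made up 180 and 221 of the CD109-/- sums and 60.1 and 91.3 of the CD109+/+ sums. Endothelial markers had a median of 0.23 with 6 of 6 higher (sums of 13.04 and 15.7 in CD109-/- against 16.1 and 11.3 in CD109+/+ tumours). Vwf made up 7.47 and 8.33 of the CD109-/- sums and 9.68 and 6.22 of the CD109+/+ sums. Alveolar type 2 and tumour epithelium markers had a median of -0.14 with 4 of 10 higher (sums of 1342 and 1147 in CD109-/- against 1491 and 1278 in CD109+/+ tumours). Sftpc made up 484 and 442 of the CD109-/- sums and 553 and 498 of the CD109+/+ sums. The part of these further cell types in the MMP values was likewise not tested.

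**Figure D5:**
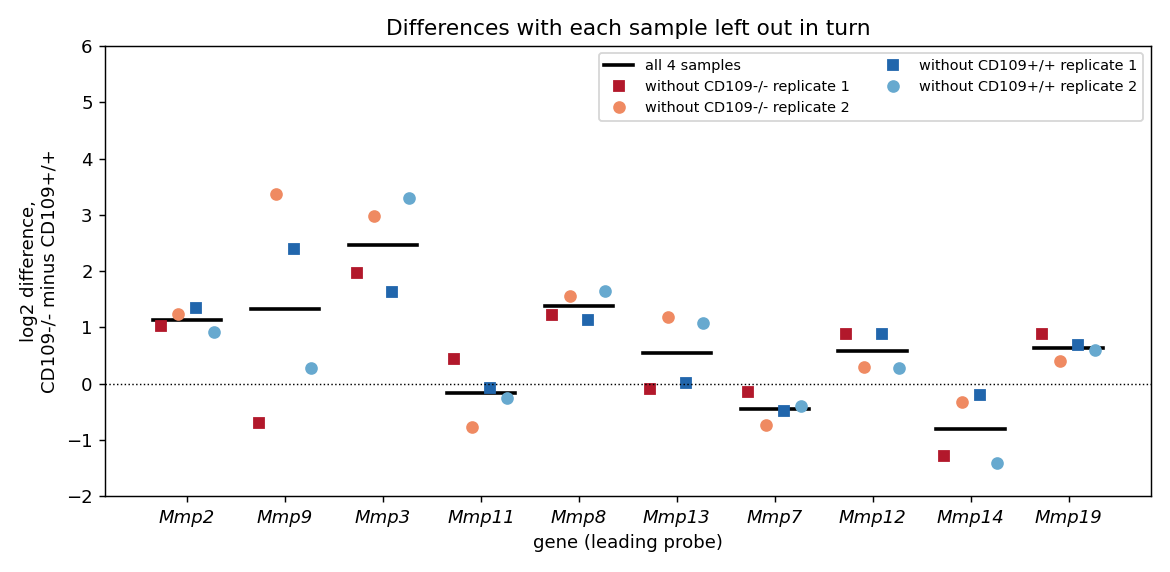
Log2 difference of each gene's leading probe, CD109-/- minus CD109+/+ (vertical axis), with all 4 samples (black bar) and with each sample left out in turn (coloured points). Mmp2, Mmp3, Mmp8, Mmp12 and Mmp19 stay above 0 and Mmp7 and Mmp14 below 0 throughout, whereas Mmp9, Mmp11 and Mmp13 change sign without CD109-/- replicate 1.

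With any 1 sample left out, the difference of the leading probe ranged from 0.28 to 0.89 for Mmp12 and from 0.40 to 0.89 for Mmp19. For Mmp7 it ranged from -0.73 to -0.15 and for Mmp14 from -1.40 to -0.21. Because CD109-/- replicate 1 was the only male, the differences were read again in the 3 female samples. Of the 10 genes 6 then had higher values in the CD109-/- sample. Mmp3 differed by 1.96, Mmp8 by 1.22, Mmp2 by 1.02, Mmp19 by 0.89, Mmp12 by 0.87 and Mmp11 by 0.43, while Mmp14 differed by -1.28, Mmp9 by -0.70, Mmp7 by -0.15 and Mmp13 by -0.10. None passed limma's adjusted threshold, and sex and the replicate number cannot be told apart within the CD109-/- samples.

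The profiles of the 3 genes with the widest range over the 4 samples were set against 15642 genes well above background on all arrays. The measure was the Euclidean distance between log2 values centred on their mean. MMP genes were passed over, so the genes named are the nearest apart from MMPs. This describes 4 samples only. Mmp9, with a range of 4.42, was nearest to Clec4e, a receptor gene of macrophages and neutrophils (distance 0.51), which had 1.22 and -2.25 in CD109-/- tumours, against -1.12 and -2.98 in CD109+/+ tumours. The next was the transcription factor gene Pdx1 (distance 0.52). Mmp3, with a range of 3.80, was nearest to Jchain, the joining chain of secreted antibodies (distance 0.59, with 2.05 and 1.47 in CD109-/- against -1.23 and -0.28 in CD109+/+ tumours), and to the heat shock gene Hspa1b (distance 0.63). Mmp14, with a range of 1.87, was nearest to P2rx2 and Marf1 (distances 0.08 and 0.11), whose differences were -0.76 and -0.70.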

How the data were processed

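Per the labels' protocols, 100 ng of tumour RNA per sample was labelled with Cy3 for Agilent arrays read in 1 colour. The authors' array files hold the processed intensity of each spot on a linear scale, made with Feature Extraction 12.1.0.3 per the file headers. The authors also deposited a value table, whose intensity values equal the processed signal times 1 constant per array (1.04, 1.08, 1.19 and 1.21, with medians from 58.8 to 76.1); the reason for the constants is unknown, and it served as an alternative. The 4 arrays shared 1 slide and 1 scan session, so neither could be a block.

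Control spots and outlier spots (58 to 73 of 59305 per array) were left out, no spot was saturated, and repeated spots were averaged per probe. The scale is log2 of the signal minus each array's 75th percentile. Probes were named by accession through a RefSeq table (GRCm38.p6), which gave a symbol to 34566 of 56605 probes. The array design uses another build, so no probe coordinates are given. Probes well above background on both arrays of a genotype were tested (35776) in limma 3.58.1 (lmFit, then eBayes; R 4.3.3) with genotype as the only term, two-sided, with Benjamini-Hochberg adjustment over all of them. A bound for a dim probe uses, per array, the higher of its own value and the lowest value well above background. The procedure was run on simulated data with independent samples and spreads drawn from limma's own fitted model. Such data cannot test how deviations shared between samples affect the p-values.

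The 10 genes and the lists were chosen with earlier results of these data known. Named are all 10 genes with every probe, Cd109, Timp1 and the 3 genes of each pathway list with the lowest p. The 2 genes with the nearest profile, MMPs left out, are named as well. Alternatives were normexp (offset 50, on median spot signals), quantile and median scaling, the authors' values, other filters, a variance trend, the mean of a gene's probes, sex, the replicate number as a block and leaving out each sample.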

Additional observations from a re-analysis of the deposited data

How the results depend on the processing

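Directions and calls held in most settings. Among 462 values of 35 named genes under 14 alternatives, 447 kept their direction and stayed without a call, and 15 changed sign. The authors' values, the other filters, the variance trend and the replicate block cannot change the difference of a probe. Directions kept under these settings were therefore fixed in advance. Of the 10 MMP genes 7 never changed sign by their leading probes. The second probe of Mmp19, which is among these, did without CD109-/- replicate 2 and without CD109+/+ replicate 2. With sex as a covariate, and equally without CD109-/- replicate 1, the differences were -0.70 for Mmp9, 0.43 for Mmp11, -0.10 for Mmp13, -0.088 for Mmp17, -0.20 for Clec4e and -1.15 for Pdx1. Mmp10 was -0.036 with normexp. With each sample left out in turn, the ranges were -0.70 to 3.36 for Mmp9, -0.77 to 0.43 for Mmp11, -0.10 to 1.18 for Mmp13, -0.088 to 0.29 for Mmp17, -0.34 to 0.65 for Mmp10, -0.20 to 3.27 for Clec4e and -1.15 to 3.47 for Pdx1. The cause was not tested. Probes past limma's adjusted threshold numbered 0 to 2 with each sample left out (2 without CD109-/- replicate 2, none of them an MMP probe) and 0 otherwise, also at 0.1. Probes at an unadjusted p under 0.05 numbered 1043 to 4580, lowest without CD109+/+ replicate 1 and highest without CD109-/- replicate 2, against 2438 with all samples. With the replicate number as a block they numbered 3949. That block put Mmp14, lower by -0.80 in CD109-/- tumours, at a limma unadjusted p of 0.0195, against 0.189 without it. Samples that share a replicate number deviated together (r = 0.35 over 35769 probes), but the labels give no pairing beyond the number. MMP genes at an unadjusted p under 0.05 numbered 2 to 4, and those with higher values 6 to 7, over all alternatives. With normexp 28 of 35 differences lay closer to 0 and 7 farther from it, at 1.54 for Mmp3, 0.86 for Mmp8, 0.76 for Mmp2, -0.72 for Cd109, -0.40 for Plg, 0.88 for Il6 and 0.96 for Pcsk5. Mmp7 had no value when signal on all 4 arrays was asked for. Signal close to background limits Mmp7 and the second Mmp9 probe.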
